A study of Mus musculus with 6 samples.

Results

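The genes described here encode the proteins of the mitochondrial ribosome. They were taken as every row of the count table whose symbol begins with Mrpl or Mrps followed by a digit, a rule with no measured value in it. The rule gave 77 of the 24062 genes in the table, 50 of the large subunit and 27 counted with the small subunit. Among the 27 is Mrps36, whose product was later assigned to another complex. RNA had been sequenced from mouse embryonic fibroblasts of the C57BL/6 strain, cultured connective tissue cells taken from embryos. In the p27 OE group a lentivirus overexpressed p27, the product of Cdkn1b and an inhibitor of cyclin-dependent kinases, and RNA was taken on day 4, before the cells became senescent according to the labels. The other group, the EV control, was also taken on day 4, and its abbreviation is not spelled out in the labels. Each group had 3 libraries, numbered 1 to 3 in their titles. The comparison asked how gene expression in p27 OE differed from that in EV control on day 4. Only the titles of the p27 OE libraries call the cells non-senescent. Separate cultures are not stated in the labels, so p-values measure the spread between these libraries, which may be technical.

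The mitochondrial ribosome translates the small set of messages encoded by mitochondrial DNA, all of which specify membrane subunits of the respiratory chain and of ATP synthase. Its ribosomal RNAs come from mitochondrial DNA, but its proteins are encoded in the nucleus, made in the cytosol and imported. Many descend from the ribosomal proteins of the bacterial ancestor of mitochondria, and the others were gained later. Fibroblasts, like other cells that respire, need them to build the respiratory chain.

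Total counts ran from 38533998 to 44518389 in the p27 OE libraries and from 34920728 to 52098220 in the EV control libraries. Cdkn1b stood at 419, 978 and 460 CPM (read counts normalised to library size, with TMM scaling) in the p27 OE libraries, against 52.2, 49.9 and 51.2 CPM in the EV control libraries, so the overexpressed gene followed the labels, although its edgeR adjusted p was 0.180 without and 0.0873 with the replicate block described next. Libraries numbered 1 stood apart from the other 4 on the first principal component, which held 58.9% of the variance over all 14090 tested genes. Deviations from the group mean correlated between the p27 OE and EV control libraries of the same number, at 0.77, 0.42 and 0.54. Across numbers 2 and 3 they correlated about as well, at 0.39 for p27 OE 3 with EV control 2 and 0.41 for p27 OE 2 with EV control 3. The correlations thus set number 1 apart without matching numbers 2 and 3. The comparison is given both without the number and with it as a replicate block, here called the paired fit. All 10 fibroblast markers were detected, with a summed level of 59404 to 61627 CPM in p27 OE and 55598 to 60606 CPM in EV control. Summed markers of macrophages were 44.6 to 80.1 CPM in p27 OE and 47.3 to 59.1 CPM in EV control, those of epithelium 9.41 to 9.69 CPM in p27 OE and 10.6 to 12.1 CPM in EV control, and those of endothelium 4.70 to 5.29 CPM in p27 OE and 2.94 to 4.57 CPM in EV control. The 5 neural markers, led by Nes, summed to 173 to 232 CPM in p27 OE and 131 to 152 CPM in EV control. No marker of these lists was at 0 in every library, and the part of other cell types in the results was not tested.

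Every mitochondrial ribosomal protein gene was expressed. All 77 had enough counts to be tested, with 335 to 3293 raw counts per library and a mean over the 6 libraries of 10.1 to 57.4 CPM per gene. Levels of different genes were compared per kilobase of exon, using exon lengths from GENCODE on GRCm38, the assembly that mm10 names. On that scale the median gene stood at 12.1 CPM per kb, and 42 of the 77 genes lay within 2-fold of it. The median was 12.5 CPM per kb for the large subunit and 10.1 CPM per kb for the small subunit.

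The highest level per kb was that of Mrpl52, a large-subunit protein with no bacterial counterpart, at 41.8 CPM per kb in p27 OE and 45.4 CPM per kb in EV control. Mrpl34, Mrpl54, Mrps21, Mrpl10 and Mrpl12 followed in that order, with means over all libraries of 40.3, 37.1, 36.3, 33.6 and 32.6 CPM per kb. The libraries of each of these 6 genes overlapped those of the next in order. Mrpl12 and Mrpl10 belong to the stalk, the mobile part of the large subunit that receives translation factors.

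The lowest level per kb was that of Mrps35, a small-subunit protein with no bacterial counterpart, at 1.56 CPM per kb in p27 OE and 1.94 CPM per kb in EV control. Next came Mrpl47, Mrpl48, Mrpl1, Mrps25 and Mrps22, with means of 2.29, 2.48, 2.73, 3.05 and 3.44 CPM per kb. The ratio of the highest to the lowest gene was 24.9, and it was 18.8 when the longest annotated transcript stood in for all exons, with Mrpl47 then lowest. Genes whose products occur together in 1 particle differed over this range in message per length, on a scale that depends on the annotated exons. The order of the high genes depends on it too. Mrpl20 stood at 24.4 CPM per kb of exon and at 50.1 CPM per kb of its longest transcript.

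**Figure D1:**
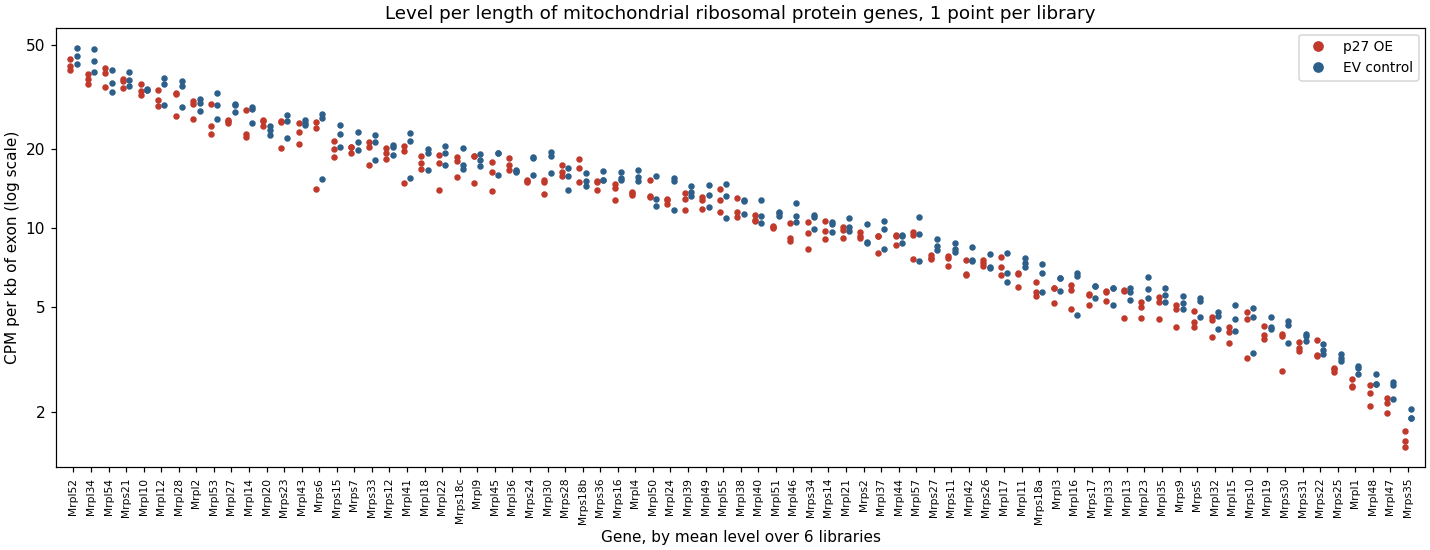
CPM per kb of exon (log scale) of the 77 genes, ordered by their mean over 6 libraries, with 1 point per library and p27 OE (red) drawn left of EV control (blue). The order runs from Mrpl52 at a mean of 43.6 to Mrps35 at 1.75 CPM per kb, and the groups overlap for most genes.

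Mitochondrial ribosomal protein messages stood slightly lower in p27 OE than in EV control across most of the list, and few single genes passed a test. Together they summed to 2033, 2234 and 2188 CPM in the p27 OE libraries, against 2210, 2373 and 2360 CPM in the EV control libraries. The ranges overlapped, because p27 OE 2 stood above EV control 1, but within each number the p27 OE library was the lower one. As a share of all counts in the library, the genes took 0.208%, 0.212% and 0.214% in p27 OE and 0.229%, 0.240% and 0.236% in EV control. These shares did not overlap, but they carry no TMM scaling, unlike the summed CPM, whose ranges did overlap.

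The median log2 fold change of the 77 genes, p27 OE over EV control, was -0.12, against -0.00 over all 14090 tested genes. Fold changes ran from -0.32 for Mrpl30 to 0.13 for Mrps18b, and 69 of the 77 were below 0, or 89.6%, against 50.3% of all tested genes. The typical size of a change was close to that of other genes, with a median absolute log2 fold change of 0.119 in these genes and 0.120 in all tested genes. No test of the list as a whole was made. Leaving out p27 OE 1 brought the median to -0.07 with 56 genes below 0, and without any one of the other libraries, it lay between -0.16 and -0.09. In bulk RNA, less message per cell and fewer cells that carry it cannot be told apart.

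**Figure D2:**
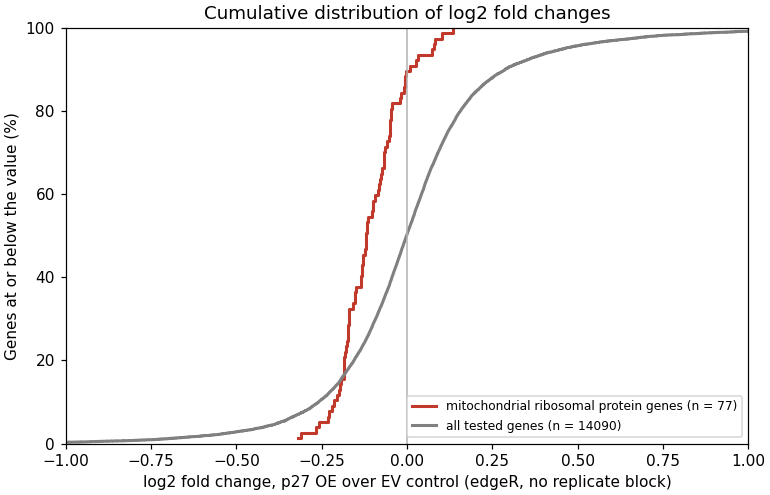
Cumulative share of genes (%) at or below each log2 fold change, p27 OE over EV control, edgeR without replicate block, for the 77 mitochondrial ribosomal protein genes (red) and all 14090 tested genes (grey); the axis is limited to -1 to 1. The red curve reaches 89.6% at a fold change of 0, where the grey curve is at 50.3%, and it is narrower at both ends.

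Without the block, edgeR's quasi-likelihood test called 0 of the 14090 genes at an adjusted p below 0.05 (Benjamini-Hochberg over all tested genes), or 0.00% in each direction, and 0 of the 77. At an unadjusted p below 0.05 it found 7 of the 77, against 7.22% of all tested genes, and all 7 had negative fold changes. DESeq2 and limma-voom without the block also called 0 of the 77. With the block, edgeR called 3 of the 77 lower in p27 OE and 0 higher, while it called 3.63% of all tested genes lower and 3.80% higher. The 3 of 77 are a share close to that rate over all genes. At an unadjusted p below 0.05 the paired fit had 21 of the 77 lower and 0 higher, against 12.0% of all tested genes lower and 11.9% higher.

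The per-library values showed the same direction more broadly than the calls. For 18 genes, or 23.4%, each p27 OE library lay below each EV control library, against 8.28% of all tested genes. For 1 gene, Mrpl20, each p27 OE library lay above, against 6.61% of all tested genes, and the groups of the other 58 overlapped. Within numbers, 44 genes, or 57.1%, were lower in p27 OE at all 3 numbers, against 23.7% of all tested genes. Only Mrpl20, Mrpl36, Mrpl54 and Mrps18b were higher at all 3 numbers, against 21.8% of all tested genes. The number of genes lower in p27 OE was 66, 57 and 59 at numbers 1, 2 and 3, with median log2 ratios of -0.13, -0.11 and -0.11.

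**Figure D3:**
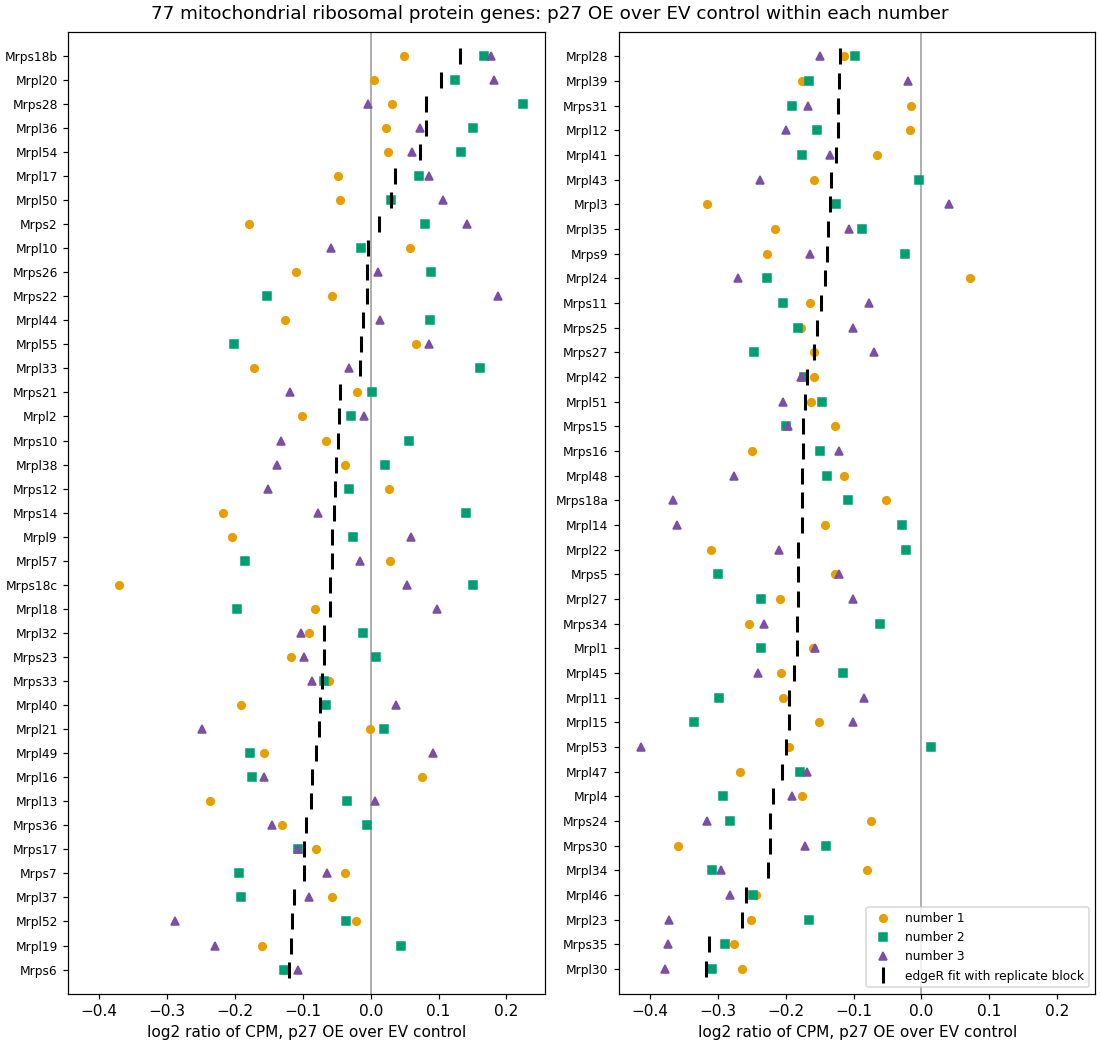
The log2 ratio of CPM, p27 OE over EV control, within number 1 (circles), 2 (squares) and 3 (triangles) for each of the 77 genes, with the log2 fold change of the paired edgeR fit as a black bar; genes are ordered by that fold change. Mrps18b at the upper left is highest at 0.13 and Mrpl30 at the lower right is lowest at -0.32, and 44 genes have all 3 points below 0.

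In the paired fit, 3 genes fell, and each had its 3 p27 OE libraries below its 3 EV control libraries. Mrpl30, a large-subunit protein with a bacterial counterpart (chr1:37890477-37898535, plus strand, GRCm38), had 43.6, 49.0 and 48.1 CPM in the p27 OE libraries and 52.4, 60.6 and 62.6 CPM in the EV control libraries. The p27 OE libraries all stood below the lowest EV control library, and libraries numbered 1 were lowest in both groups. Its log2 fold change was -0.32 ± 0.06 (SE) with an edgeR adjusted p of 0.00805 in the paired fit, and -0.32 ± 0.09 with an adjusted p of 0.677 without the block.

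Mrps35 of the small subunit (chr6:147042764-147073991, plus strand), which had the lowest level per kb, had 14.5, 13.4 and 12.6 CPM in the p27 OE libraries and 17.6, 16.3 and 16.4 CPM in the EV control libraries. Here libraries numbered 1 were the highest of each group, the reverse of Mrpl30, and the difference within numbers ran from -0.37 to -0.28 on the log2 scale. The paired edgeR fit gave a log2 fold change of -0.31 ± 0.09 (SE) with an adjusted p of 0.0440. Mrpl23 (chr7:142532686-142540747, plus strand), counterpart of a bacterial protein at the rim of the peptide exit tunnel, had 22.3, 25.4 and 24.5 CPM in the p27 OE libraries and 26.5, 28.5 and 31.7 CPM in the EV control libraries. Its paired log2 fold change was -0.26 ± 0.07 (SE), with an edgeR adjusted p of 0.0461. The largest difference within a number was at number 3. Both calls lie close to the threshold, and each held in 8 of 11 fits with the block, against 10 of 11 for Mrpl30. Without the libraries numbered 3 the paired fit called 0 of the 77 genes, without those numbered 2 it called 2, and without those numbered 1 it called 7. The count over all tested genes also differed between these fits and was highest without those numbered 1. None of these counts is therefore read as particular to this list.

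**Figure D4:**
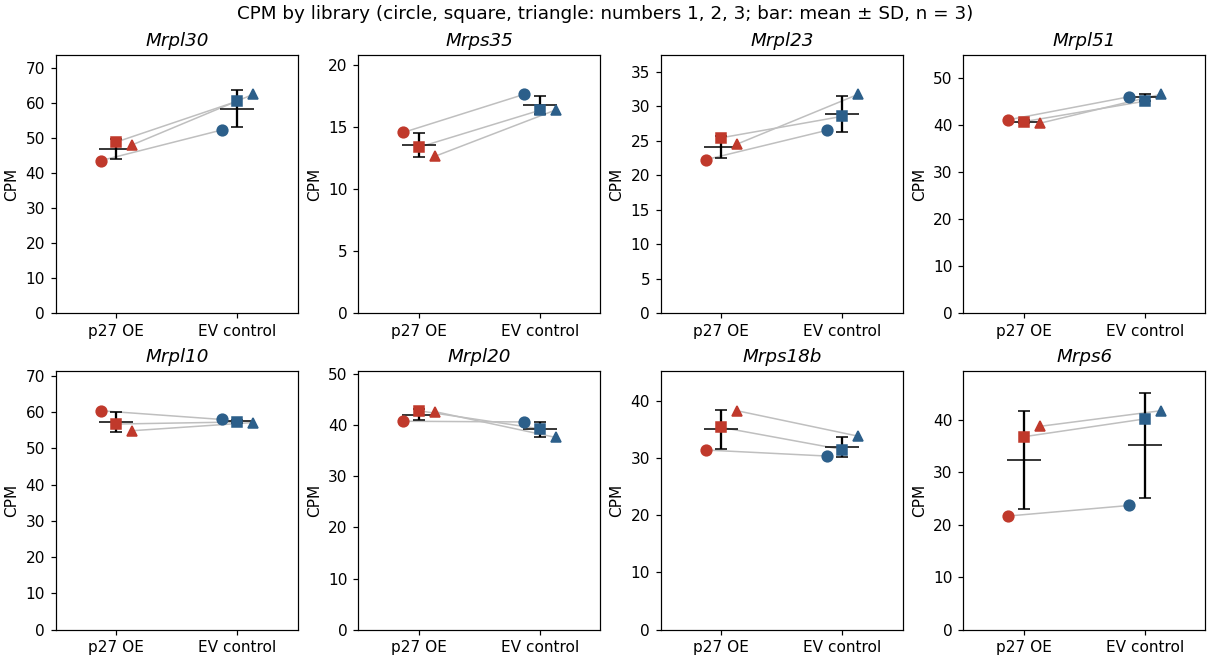
CPM in each library for 8 genes, p27 OE (red) left of EV control (blue), with circles, squares and triangles for numbers 1, 2 and 3, grey lines joining libraries of the same number, and the mean ± SD of 3 libraries; every axis starts at 0. Mrpl30, Mrps35, Mrpl23 and Mrpl51 have all p27 OE libraries below all EV control libraries, Mrpl20 has them above, and Mrps6 is split by number.

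Promoter sequences were available for 68 of the 77 genes from RefSeq on GRCm38.p6, as 300 bases from 250 before to 50 after the start. Motifs searched on both strands were CCGGAAG for ETS factors including GABP, CGCATGC for NRF1, GATGGCG for YY1 and CACGTG, the E-box that MYC can bind. CCGGAAG was found in 24 promoters, or 35.3%, against 17.2% of the 10476 tested genes with a promoter. CGCATGC and GATGGCG were each found in 8, or 11.8%, against 6.39% and 6.35%. CACGTG was found in 5, or 7.35%, against 10.2%. Median GC content was 58.2% in the 68 and 61.0% in the tested genes. The median log2 fold change without the block was -0.08 in genes with CCGGAAG and -0.12 in those without it, -0.03 and -0.13 for CGCATGC, -0.15 and -0.11 for GATGGCG, and -0.04 and -0.12 for CACGTG. These differences were not tested, and a match in these letters is a description of the window.

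The 150 bases before the RefSeq start are printed for both called genes with an entry (Mrpl30 and Mrpl23), for the gene best separated by group below EV control (Mrpl51), for the one above it (Mrpl20) and for one near 0 (Mrpl10). Capitals mark the motifs above. All 5 are on the plus strand of GRCm38.p6, at chr1:37890327-37890476, chr7:142532882-142533031, chr6:125192050-125192199, chr4:155802728-155802877 and chr11:97041432-97041581, in the order below.
Mrpl30: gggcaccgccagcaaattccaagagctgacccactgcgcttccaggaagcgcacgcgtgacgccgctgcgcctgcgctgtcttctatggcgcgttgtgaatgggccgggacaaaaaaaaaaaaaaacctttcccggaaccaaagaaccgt
Mrpl23: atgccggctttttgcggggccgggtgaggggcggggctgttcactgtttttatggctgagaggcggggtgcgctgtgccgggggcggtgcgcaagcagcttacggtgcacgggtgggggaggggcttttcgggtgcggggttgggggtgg
Mrpl51: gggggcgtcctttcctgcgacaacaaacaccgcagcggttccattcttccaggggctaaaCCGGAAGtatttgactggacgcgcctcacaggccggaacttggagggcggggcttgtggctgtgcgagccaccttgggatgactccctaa
Mrpl20: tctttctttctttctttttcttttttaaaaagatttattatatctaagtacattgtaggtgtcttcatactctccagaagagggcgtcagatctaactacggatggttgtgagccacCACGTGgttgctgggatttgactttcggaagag
Mrpl10: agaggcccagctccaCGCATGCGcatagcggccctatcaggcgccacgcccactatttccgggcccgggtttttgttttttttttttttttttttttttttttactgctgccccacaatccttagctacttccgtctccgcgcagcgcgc
None of the 4 motifs lies in the printed bases of Mrpl30 or Mrpl23. The RefSeq and GENCODE starts of Mrpl23 differ, and its printed bases lie inside the GENCODE coordinates given above. The bases before its GENCODE start are not printed. Mrpl51 holds CCGGAAG, Mrpl20 holds the E-box, and Mrpl10 holds CGCATGC on both strands in overlapping positions.

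The other large-subunit proteins with a bacterial counterpart leaned the same way. This class has 29 genes, of which 26 were below 0 in the fit without the block, with a median log2 fold change of -0.13 there and -0.12 in the paired fit, and besides Mrpl30 and Mrpl23 none passed the test in the paired fit. Mrpl4, counterpart of a protein that lines the exit tunnel, had 34.9, 35.6 and 35.9 CPM in p27 OE and 39.4, 43.6 and 41.0 CPM in EV control. Its groups were well apart, but its paired log2 fold change of -0.22 ± 0.06 (SE) had an edgeR adjusted p of 0.0571. Mrpl4 is singled out because its values were seen to lie just outside the threshold. Mrpl34, second in level per kb, had 22.5, 23.5 and 21.5 CPM in p27 OE and 23.8, 29.1 and 26.4 CPM in EV control. Its groups did not overlap, though p27 OE 2 and EV control 1 were close, and its edgeR adjusted p in the paired fit was 0.0905.

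None of the 3 genes of the stalk and its base passed the test in the paired fit. Mrpl11, which sits at the base of the stalk in bacteria, averaged 20.9 ± 1.37 CPM in p27 OE and 23.9 ± 0.947 CPM in EV control (SD, n = 3 each), with no overlap between the groups. Mrpl12 averaged 47.7 ± 3.34 CPM in p27 OE and 52.1 ± 6.16 CPM in EV control (SD, n = 3 each), and its groups overlapped. Mrpl10 had 60.4, 56.7 and 54.8 CPM in p27 OE and 58.0, 57.3 and 57.1 CPM in EV control, a paired log2 fold change of -0.00 whose sign turned under RLE scaling. Differences between the 3 genes were not tested.

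Mrpl20, with the E-box in its printed promoter, was the gene whose p27 OE libraries all stood above the EV control libraries. Its bacterial counterpart acts early in the assembly of the large subunit. It had 40.7, 42.8 and 42.6 CPM in p27 OE and 40.6, 39.3 and 37.6 CPM in EV control. At number 1 the libraries were almost equal. The paired log2 fold change was 0.10 ± 0.07 (SE) with an edgeR adjusted p of 0.372.

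Large-subunit proteins without a bacterial counterpart had a median log2 fold change of -0.12 in both fits, with 19 of 21 genes below 0 without the block and 0 called with it. Mrps30 and Mrps18a, named for the small subunit but found in the large one, are counted here. Mrpl51, whose printed promoter holds CCGGAAG, had 41.1, 40.7 and 40.3 CPM in p27 OE and 46.0, 45.0 and 46.5 CPM in EV control. Group accounted for 96.8% of its variance in log2 CPM, yet its paired log2 fold change of -0.17 ± 0.06 (SE) had an edgeR adjusted p of 0.109; it was chosen after its values were seen. Mrpl46, a protein of the central protuberance, had 12.6, 14.8 and 12.9 CPM in p27 OE and 14.9, 17.6 and 15.7 CPM in EV control, with a paired log2 fold change of -0.26 ± 0.09 (SE) and an edgeR adjusted p of 0.0873. Mrpl46 and its neighbour Mrps11 overlap on opposite strands, and, with a kit that keeps no strand, reads of their shared exon bases cannot be told apart.

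Mrpl45, which tethers the human ribosome to the inner membrane at the exit of the tunnel, averaged 41.5 ± 5.28 CPM in p27 OE and 47.2 ± 5.06 CPM in EV control (SD, n = 3 each). Mrps30 averaged 23.7 ± 4.10 CPM in p27 OE and 27.5 ± 2.78 CPM in EV control (SD, n = 3 each). In both genes the number, which has more levels, accounted for more of the variance than the group did. Both genes were lower in p27 OE at all 3 numbers without passing the test. Mrpl44 and Mrpl41 had paired log2 fold changes of -0.01 and -0.13 and did not pass either.

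The 16 small-subunit proteins with a bacterial counterpart had a median log2 fold change of -0.10 without the block, with 14 below 0, and the 11 without one had -0.09, with 10 below 0. In the paired fit 0 of the first class and 1 of the second, Mrps35, were called. Mrps24 had 22.1, 22.4 and 21.9 CPM in p27 OE and 23.3, 27.2 and 27.3 CPM in EV control. Its p27 OE libraries lay within 1 CPM of each other, and EV control 1 was the closest to them. Mrps16, a gene with disease variants in humans that impair mitochondrial translation, averaged 40.0 ± 2.93 CPM in p27 OE and 45.1 ± 1.77 CPM in EV control (SD, n = 3 each). Mrps12, of the decoding centre, had a paired log2 fold change of -0.05 ± 0.08 (SE) and overlapping groups.

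Mrps18a, Mrps18b and Mrps18c are related in sequence to one bacterial protein and occupy different places in the ribosome. Only Mrps18c, which takes the place of that protein, was counted above as having a bacterial counterpart. Mrps18a had 20.3, 23.01 and 21.0 CPM in p27 OE and 21.1, 24.8 and 27.02 CPM in EV control. Mrps18b had 31.4, 35.3 and 38.2 CPM in p27 OE and 30.3, 31.5 and 33.8 CPM in EV control. Mrps18c had 16.9, 20.1 and 19.5 CPM in p27 OE and 21.8, 18.1 and 18.8 CPM in EV control. The groups overlapped in each of the 3 genes, and p27 OE was higher at every number for Mrps18b only. They had paired log2 fold changes of -0.18, 0.13 and -0.06 and edgeR adjusted p of 0.213, 0.259 and 0.771, and differences between them were not tested. Mrps18b had the highest fold change of the list, and 30.5% of its exon bases overlap another annotated gene.

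Mrps36, later assigned to the 2-oxoglutarate dehydrogenase complex, is counted by its symbol among the small-subunit genes above. Mrps36 averaged 18.7 ± 0.802 CPM in p27 OE and 19.9 ± 0.930 CPM in EV control (SD, n = 3 each). Mrps34 had a paired log2 fold change of -0.18, but 77.8% of its exon bases overlap other genes, and Mrps25 at -0.15 has 69.8%. In all, 32 genes share exon bases with another gene and their reads may be shared too. Their median log2 fold change without the block was -0.13, against -0.12 for the 45 without such overlap.

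Over these genes the replicate number accounted for more of the variance than the group did, but it also has more levels. A factor with more levels takes a larger share even where neither has an effect, so their shares are not directly comparable. The median share of variance in log2 CPM was 47.7% for the number and 30.8% for the group over the 77 genes, against 60.1% and 13.2% over all tested genes. Mrps6 was the extreme case, with 21.6, 36.7 and 38.7 CPM in p27 OE and 23.7, 40.1 and 41.7 CPM in EV control. Its libraries numbered 1 stood far below the others in both groups, the number held 97.5% of its variance, and within numbers the p27 OE library was lower each time. Mrps6 was chosen after its values were seen, and its exons overlap those of Slc5a3 on the same strand.

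Libraries numbered 1 lay below all 4 others for 25 of the 77 genes, or 32.5%, and above them for 7, or 9.09%, against 24.5% of all tested genes each way. Mrpl10, Mrpl17, Mrpl54 and Mrps28 were among the 7. The fit with the block estimates the group difference within numbers.

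**Figure D5:**
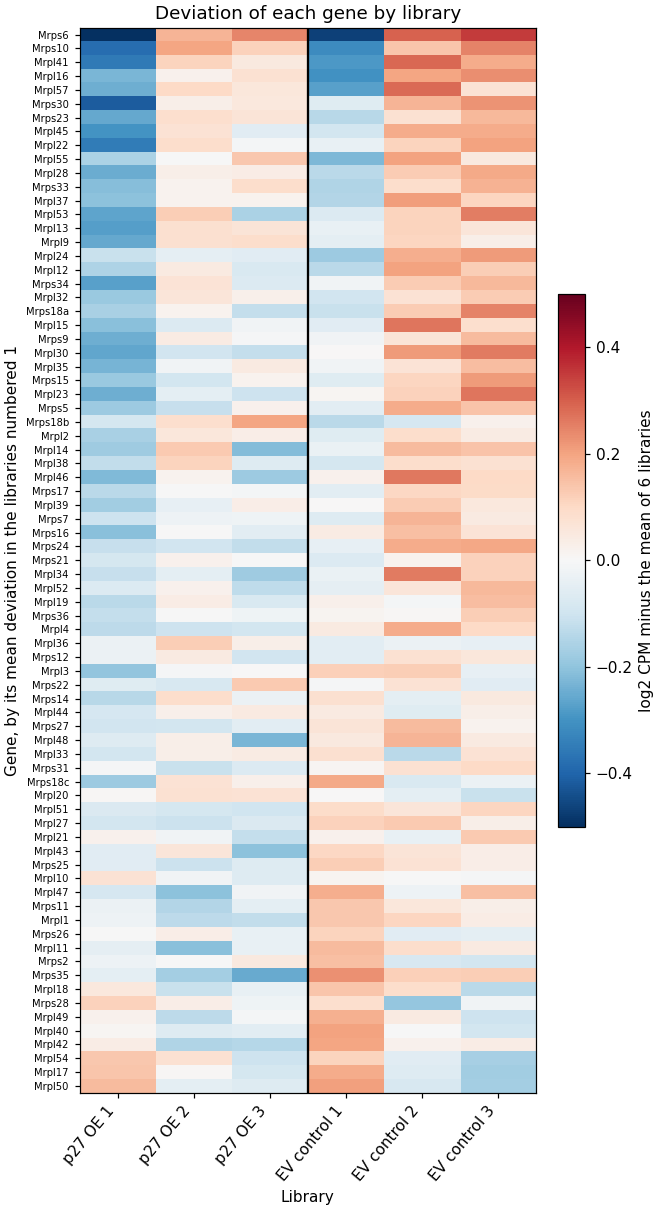
Deviation of log2 CPM from the mean of the 6 libraries for each gene (rows, ordered by the mean deviation in the libraries numbered 1) in the 3 p27 OE libraries (left of the line) and the 3 EV control libraries (right). Libraries numbered 1 are low for Mrps6 and the genes near it at the top and high for Mrpl50, Mrpl17 and Mrpl54 at the bottom, and p27 OE columns are bluer than EV control columns of the same number for most genes.

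Proteins of the particle whose symbols lie outside the rule, and the factors that build and serve it, were read in the same paired fit. That fit called 3.63% of all tested genes lower and 3.80% higher, and these short lists were not tested against those shares. Of 6 tested ribosomal proteins with other names, Ict1, a peptide release factor built into the large subunit, fell and Ptcd3, a pentatricopeptide repeat protein of the small subunit, rose. Ict1 had 16.4, 19.2 and 17.8 CPM in p27 OE and 19.9, 23.6 and 21.9 CPM in EV control, a log2 fold change of -0.29 ± 0.08 (SE) with an edgeR adjusted p of 0.0371. Ptcd3 had 41.6, 28.7 and 30.4 CPM in p27 OE and 34.2, 21.9 and 24.1 CPM in EV control, a log2 fold change of 0.33 ± 0.07 (SE) with an edgeR adjusted p of 0.0118. The libraries of Ptcd3 overlapped between the groups, and the difference appeared within each number.

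Of 28 genes for assembly of the mitochondrial ribosome, 1 fell and 0 rose, and the median log2 fold change was -0.10. The 1 of 28 is a share close to the 3.63% of all tested genes called lower. The gene was Rbfa, a maturation factor of the small subunit, with 27.5, 28.9 and 30.8 CPM in p27 OE and 30.7, 38.9 and 36.1 CPM in EV control and an edgeR adjusted p of 0.0407. Eral1, a chaperone of the small-subunit RNA, and Malsu1, which acts on the large subunit and was added after its value was seen, had log2 fold changes of -0.28 and -0.32 and edgeR adjusted p of 0.0578 and 0.0581. Of 16 tested translation factors, Oxa1l, which inserts newly made proteins into the inner membrane and binds the ribosome, fell. It had 43.9, 42.0 and 44.1 CPM in p27 OE and 50.8, 55.7 and 54.9 CPM in EV control, a log2 fold change of -0.31 ± 0.06 (SE) with an edgeR adjusted p of 0.0118. The groups did not overlap. Mtrf1l, a release factor and the next in order, had -0.27 with an adjusted p of 0.217.

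The 20 mitochondrial aminoacyl-tRNA synthetase genes, which charge the tRNAs used by this ribosome, had 0 called and a median log2 fold change of -0.05. Fars2 and Mars2, with the smallest p-values, had log2 fold changes of -0.23 and 0.28. The 17 genes for mitochondrial DNA maintenance and transcription also had 0 called, with a median of 0.01. Tfb2m and Polg2 came first there, with 0.17 and -0.30. In the unpaired edgeR test both lists had 0 genes with an unadjusted p below 0.05, against 7.22% of all tested genes. Messages encoded by mitochondrial DNA itself could not be read, because no row of the count table carried a symbol searched for them.

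Among 10 transcription factors and coactivators of nuclear genes for mitochondria, Myc and Pprc1 rose in the paired fit and 0 fell. Over all tested genes 3.80% were called higher and 3.63% lower. Myc had 42.1, 89.1 and 77.0 CPM in p27 OE and 30.0, 55.6 and 53.8 CPM in EV control, a log2 fold change of 0.56 ± 0.06 (SE) with an edgeR adjusted p of 0.00022. Pprc1, a coactivator of respiratory genes, had 84.6, 83.0 and 87.3 CPM in p27 OE and 68.0, 77.2 and 73.8 CPM in EV control, a log2 fold change of 0.22 ± 0.06 (SE) with an edgeR adjusted p of 0.0390. Gabpa, Nrf1 and Yy1, whose products bind promoters of such genes and whose motifs were searched above, had log2 fold changes of 0.17, 0.06 and -0.12 and did not pass. The coactivators Ppargc1a and Ppargc1b had the lowest log2 fold changes of the 10, -0.60 and -0.55, and did not pass either. Their levels were low, with means of 0.210 and 1.44 CPM in p27 OE and 0.327 and 2.15 CPM in EV control. Both were added after their values were seen. In the fit without the block, 7 of the 10 were above 0 and 3 below. Without the block, edgeR, DESeq2 and limma-voom each called 0 genes of these lists. At an unadjusted p below 0.05, edgeR without the block had 3 of the 6 differently named ribosomal proteins and 3 of the 28 assembly genes. It also had 1 of the 16 translation factors and 1 of the 10 transcription factors and coactivators. Over all tested genes the share was 7.22%, and these short lists were not tested against it.

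Other nuclear gene sets for ribosomes and respiration are given beside the list. Of 81 tested cytosolic ribosomal protein genes, 79 were below 0 without the block, with a median log2 fold change of -0.22, and 47 were called lower in the paired fit. Of 79 tested nuclear genes for oxidative phosphorylation, 73 were below 0 without the block, with a median of -0.13, and 12 were called lower in the paired fit. Over all tested genes 3.63% were called lower and 3.80% higher in that fit. Neither set had a gene called higher, and whether either differs from the mitochondrial ribosomal protein genes was not tested.

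The 77 genes lie on 17 chromosomes, with at most 10 on 1, chromosome 11. By GENCODE starts, a protein-coding neighbour starts head to head within 1000 bases upstream, or with at most 200 bases of overlap, for 23 of them. Mrpl46 and Mrps11, which overlap on opposite strands, are not among the 23. The neighbours of the 23 had a median paired log2 fold change of -0.00, with 12 below 0 and 11 above, and 12 of the 23 pairs had the same sign. Mitd1, 66 bases from Mrpl30, had -0.11 ± 0.09 (SE) with an edgeR adjusted p of 0.530, and Ppp1r10, 45 bases from Mrps18b, was the 1 neighbour that rose, at 0.28 ± 0.07 (SE) with an adjusted p of 0.0336. Over all tested genes 3.80% were called higher in that fit. Both neighbours were chosen after their values were seen.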

How the data were processed

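For 6 libraries the authors deposited raw gene counts in 1 table, as whole numbers with no normalization. Genome build mm10 is named in the submitters' processing notes, beside Subread, featureCounts 1.4.6, Bowtie2 2.2.6 and TopHat2 2.0.14. The annotation and the counting of strand and of multiply matching reads were not given in the sources used here. Per the labels' protocols, the TruSeq version 2 kit was used. From these counts, genes were kept by edgeR's filterByExpr (minimum count 10, minimum total 15), scaled by TMM and tested with edgeR 4.0.16 in R 4.3.3 (quasi-likelihood, robust, two-sided), without and with the replicate number as a block. The pairing rests on the titles' shared numbers and on the correlations given above, though p27 OE 3 with EV control 2 at 0.39 and p27 OE 2 with EV control 3 at 0.41 correlated about as well, so numbers 2 and 3 are not told apart by it. The symbol rule uses no measured value, but it and the lists were chosen with earlier results of these data known. Named genes are those called in either fit, the 6 with the highest and lowest fold change or level per kb, and a panel; others are said to be chosen after their values were seen. The fits were tested on simulated data. DESeq2 1.42.0, limma 3.58.1 (voom), other scalings and filters, left-out libraries and a GC and length correction were tried. With 3 against 3 an exact permutation test cannot give a p below 0.1, so none was used.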

Additional observations from a re-analysis of the deposited data

How the results depend on the processing

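The median log2 fold change of the 77 genes stayed below 0 under all 23 alternatives, between -0.16 and -0.07, with 56 to 70 genes below 0; under other scalings it was -0.14 to -0.11. The counts of called genes depended on the replicate block. Beside 0 genes in all, 0 of the 77 and 0 of the other lists without it, the block gave 1047, 3 and 6 called. With the block these counts were 1042, 2 and 6 under RLE scaling, 1219, 4 and 8 under upper-quartile scaling, 1416, 4 and 9 with no filter, 1018, 3 and 6 with at least 1 CPM in at least 3 libraries, 830, 1 and 3 in DESeq2, 1042, 3 and 6 in limma-voom, and 1339, 5 and 8 with the GC and length correction. Without the block, no filter gave 1 gene in all and DESeq2 gave 89, with 0 of the 77 in both. Leaving out libraries, without or with the block, gave 0 to 1741 genes in all, 0 to 7 of the 77 and 0 to 7 of the other lists; the highest counts came without both libraries numbered 1. Causes were not tested.

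Single genes turned sign where their log2 fold change was near 0. Mrpl10 was 0.0027 under RLE scaling, 0.0019 with the block, 0.00065 with the CPM filter, 0.0029 in DESeq2, 0.0019 in DESeq2 with the block and 0.026 with the GC and length correction, which gave 0.017 for Mrpl44. Mrps22 was 0.0014 under RLE scaling, 0.00049 with the block, 0.0018 in DESeq2 and 0.000050 in DESeq2 with the block. Mrps2 was -0.012 under upper-quartile scaling and -0.0084 with the block. Over all 24 settings, left-out libraries included, Mrpl10 ranged from -0.043 to 0.026, Mrpl17 ranged from -0.044 to 0.14 and Mrpl44 ranged from -0.053 to 0.049. Mrps2 ranged from -0.052 to 0.11, Mrps18c ranged from -0.16 to 0.1, Mrps21 ranged from -0.092 to 0.0024 and Mrps22 ranged from -0.10 to 0.068. Differences of a few hundredths on the log2 scale are within the standard errors of 0.06 to 0.10 in the paired fit, which limits what can be read from the genes near 0. The ranges of Mrps18c and Mrpl17 were wider than a few hundredths.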
